A study of Mus musculus with 8 samples.

Results

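The genes described here were measured in immature myeloid cells (IMCs) of mice with a conditional deletion of PARP1 or PARP2 and of their controls, and are 10 of the 24062 genes of the deposited count table. They encode 7 matrix metalloproteinases (Mmp8, Mmp9, Mmp12, Mmp13, Mmp14, Mmp19 and Mmp25), 2 tissue inhibitors of metalloproteinases (Timp1 and Timp2) and Adam8, a membrane-bound disintegrin and metalloproteinase that is a relative of the matrix metalloproteinases and not one of them. The set was chosen by its measured values, because Mmp12 differed between PARP1CKO and PARP1 WT IMCs and Mmp9 between PARP2CKO and PARP2 WT IMCs. Those values of Mmp12 and Mmp9 are therefore given as a description, with no test. All 10 genes passed the filter on low counts, as did 13197 genes in all.

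IMCs are bone marrow cells grown for 3 days in 40 ng per mL of M-CSF, the growth factor that drives myeloid progenitors toward macrophages and osteoclast precursors. Total RNA was sequenced in 8 libraries, 2 from each of 4 groups of C57BL/6 mice aged 2 months. PARP1 WT mice were PARP1 flox/flox and PARP1CKO mice were PARP1 flox/flox with lysozyme-Cre. PARP2 WT mice were PARP2 flox/flox and PARP2CKO mice were PARP2 flox/flox with lysozyme-Cre. The controls thus carried the floxed allele as well, and neither WT group carried Cre. Lysozyme-Cre acts in cells that express lysozyme M, and the counts do not give the share of cells in which the floxed gene was deleted. The libraries are described as biological duplicates, and how many mice stand behind each is not given in the sources used here.

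Matrix metalloproteinases are zinc-dependent proteases that are made as inactive precursors and together cleave most proteins of the extracellular matrix. Mmp8 (neutrophil collagenase) and Mmp13 cut fibrillar collagen, Mmp9 (gelatinase B) cuts denatured collagen, and Mmp12 is the elastase of macrophages. Mmp14 and Mmp25 are anchored in the membrane. TIMP proteins bind the active site of these enzymes, and TIMP2 also joins MMP14 at the cell surface to activate MMP2. In bone marrow, neutrophils store MMP8, MMP9 and MMP25 in granules, whereas MMP9 and MMP14 are known in osteoclasts and their precursors.

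Mmp13, Mmp12 and Mmp8 lie on chromosome 9 of mm10 (GRCm38) within a cluster of 10 metalloproteinase genes that spans 427 kb. By the GENCODE M21 annotation Mmp13 runs from 7272514 to 7283331, Mmp12 from 7344381 to 7369499 and Mmp8 from 7558456 to 7568485, all on the plus strand. Of the other genes in the cluster, Mmp27 had between 432 and 910 counts per library and Mmp10 between 5 and 18. Mmp3 had at most 3 counts, Mmp7 at most 1, and Mmp1a, Mmp1b and Mmp20 had 0 in all 8 libraries. Only part of the cluster was thus detected in IMCs. The other genes lie apart, Mmp9 on chromosome 2 from 164940780 to 164955850, Mmp14 on chromosome 14 from 54431612 to 54445364 and Mmp19 on chromosome 10 from 128790910 to 128800824. Timp1 is on chromosome X from 20870166 to 20874735. On the minus strand, Mmp25 is on chromosome 17 from 23628311 to 23645277, Timp2 on chromosome 11 from 118301069 to 118355740 and Adam8 on chromosome 7 from 139978932 to 139992562. Parp2 is also on chromosome 14, 3.61 Mb from Mmp14. Counts were summed over each gene, so they do not separate exons or isoforms.

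The promoters of Mmp12 and its neighbor Mmp13 are shown because these 2 had the lowest log2 fold changes of the set in PARP1CKO against PARP1 WT (-0.73 and -0.36, the first of which chose the set). Each sequence is the 250 bases before a RefSeq start site on GRCm38.p6, plus strand, written 5′ to 3′, with motif matches in capitals. The capitals mark the AP-1 motif TGANTCA, the ETS motif AGGAAG (which reads as CTTCCT where it lies on the minus strand) and the TATA box TATAAA. Mmp12 has 2 start sites in RefSeq, the second of which lies inside the gene.
Mmp13, chr9:7272264-7272513: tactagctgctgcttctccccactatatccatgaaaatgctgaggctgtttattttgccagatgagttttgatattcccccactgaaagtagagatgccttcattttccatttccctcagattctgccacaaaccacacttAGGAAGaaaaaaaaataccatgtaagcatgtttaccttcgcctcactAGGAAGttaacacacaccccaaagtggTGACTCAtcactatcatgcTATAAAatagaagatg
Mmp12, first start, chr9:7344147-7344396: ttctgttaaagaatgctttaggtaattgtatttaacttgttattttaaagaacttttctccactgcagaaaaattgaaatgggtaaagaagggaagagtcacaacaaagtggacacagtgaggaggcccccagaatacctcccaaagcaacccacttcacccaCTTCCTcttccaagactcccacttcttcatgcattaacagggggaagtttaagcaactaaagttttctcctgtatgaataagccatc
Mmp12, second start, chr9:7347124-7347373: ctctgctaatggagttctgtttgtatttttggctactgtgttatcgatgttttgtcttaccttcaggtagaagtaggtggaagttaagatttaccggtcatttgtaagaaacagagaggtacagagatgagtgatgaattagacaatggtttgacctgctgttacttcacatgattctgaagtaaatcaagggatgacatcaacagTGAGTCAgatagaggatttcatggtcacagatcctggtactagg

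Mmp13 held an AP-1 match starting at -35 from the start site, ETS matches at -109 and -62 and a TATA box at -16. The first Mmp12 window held 1 ETS match at -87, and the second held an AP-1 match at -44 and a TATA box at 5 bases after the start. Among 8 of the 10 genes with a RefSeq window of 300 bases (250 before and 50 after the start, 9 windows, both strands searched), AP-1 matched only these 2 windows. Mmp9, the other gene that chose the set, and Mmp19 had no window and were not searched. Of all 32851 windows of that length, 7.81% held the AP-1 motif, 35.4% the ETS motif, 13.6% the TATA box and 4.51% the kappa B motif. The ETS motif was also found in the windows of Mmp8, Mmp14, Mmp25 and Timp1, a TATA box on the minus strand at -3 in that of Mmp8, and kappa B in that of Mmp25. None of the 4 motifs matched in those of Timp2 and Adam8. A match is a description of the sequence, and binding was not measured.

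The libraries held between 37852450 and 61845125 counts. The deleted genes followed the labels, as Parp1 had 202 and 211 CPM (counts scaled to a common library size with edgeR's TMM factors) in PARP1 WT and 63.2 and 59.1 in PARP1CKO, and Parp2 had 48.2 and 48.3 CPM in the PARP2 WT libraries against 25.8 and 25.6 in the PARP2CKO libraries. Counts of both genes thus remained in the CKO libraries. In PARP2 WT, Parp1 differed between the libraries (251 and 155 CPM). The macrophage markers Csf1r and Cd68 had group means between 1193 and 1264 CPM and between 1629 and 1855 CPM, while neutrophil, granulocyte progenitor and, at a low level, B cell markers were also counted. In such bulk samples fewer cells of a type and less RNA per cell cannot be told apart.

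The level of each gene was first compared across the set as CPM per kb of exon length, the unit in which genes of different length can be set side by side. Adam8 was the highest, with a mean of 349 CPM per kb (SD 53.6, n = 8 libraries), above Mmp12 in 8 of 8 libraries. Mmp12 (52.1), Timp2 (43.1) and Mmp8 (42.1 CPM per kb) came next and overlapped when all annotated exons made up the length. Over the exons of the basic transcripts alone, Mmp12 stood at 94.6 and Timp2 at 45.3 CPM per kb, and Mmp12 was above Timp2 in 8 of 8 libraries. Over all exons Mmp12 exceeded Timp2 in 6 of 8 libraries and Timp2 exceeded Mmp8 in 5 of 8. Mmp9 (10.8) and Mmp19 (7.31 CPM per kb) followed, with Mmp9 higher in 5 of 8 libraries, and then Mmp13 (2.51 CPM per kb). Timp1 (1.09), Mmp14 (0.944) and Mmp25 (0.723 CPM per kb) were the lowest, and none of these stood above the next in more than 5 of 8 libraries. Within the set Mmp14 varied most, with its highest library 2.98-fold above its lowest, and Mmp8 least, with 1.39-fold.

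**Figure D1:**
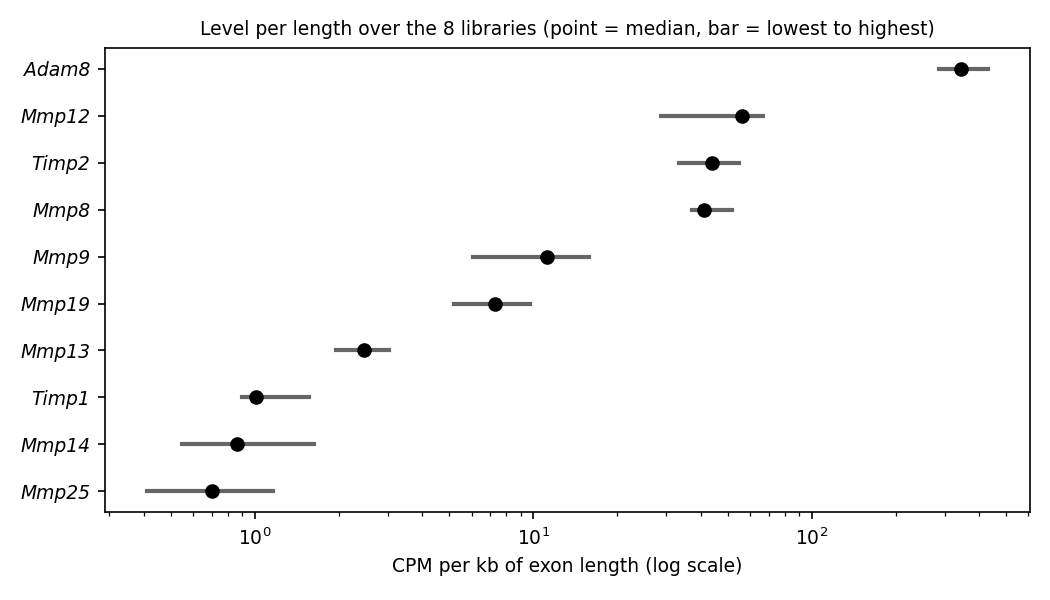
Level of each of the 10 genes in CPM per kb of exon length on a log axis, with the median as a point and a bar from the lowest to the highest of the 8 libraries. Adam8 lies apart at the top, from 287 to 428, and Mmp12, Timp2 and Mmp8 overlap below it over all annotated exons.

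Timp2 was the main inhibitor among those measured. In CPM per kb it stood at 43.1 against 1.09 for Timp1, and the other inhibitor genes on the list drawn up for the pathway reached 4.70 for Timp3 and 0.479 for Reck, a membrane-anchored inhibitor. The level of Timp2 per length was 52.6 to 78.5 times that of Mmp14 in the libraries of the PARP1 line and 33.6 to 42.6 times in those of the PARP2 line. Over basic transcripts these multiples were 38.8 to 57.9 and 24.7 to 31.4. Relative to Mmp12, the level of Timp2 over all exons was 0.633 and 0.691 in the PARP1 WT libraries against 1.27 and 1.31 in the PARP1CKO libraries. In the PARP2 line it was 0.785 and 0.716 in the WT libraries against 0.825 and 0.799 in the PARP2CKO libraries. These ratios rest on the exon length used, since over basic transcripts they were 0.737 and 0.759 in the PARP1CKO libraries and between 0.366 and 0.477 in the other 6, all below 1. The higher ratio in PARP1CKO includes the level of Mmp12 that chose the set (log2 fold change -0.73), so it is not independent of that choice. It also includes the level of Timp2 (0.23, not called).

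Overlapping genes may limit 3 of the values. The overlaps were taken from the whole span of each gene, and whether exons overlap was not examined. The library kit was strand-specific, but the sources used here do not give the strand setting of the counting. All of Timp1 lies within Syn1 on the opposite strand, and Timp1 had 36 to 83 counts per library against 280 to 425 for Syn1. Mmp19 overlaps Tmem198b by 789 bases on the opposite strand (465 to 737 counts), and Adam8 contains Mir7062 on the same strand (43 to 112 counts). Mmp12 overlaps Mmp1b by 1261 bases, and Mmp1b had 0 counts in all 8 libraries.

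**Figure D2:**
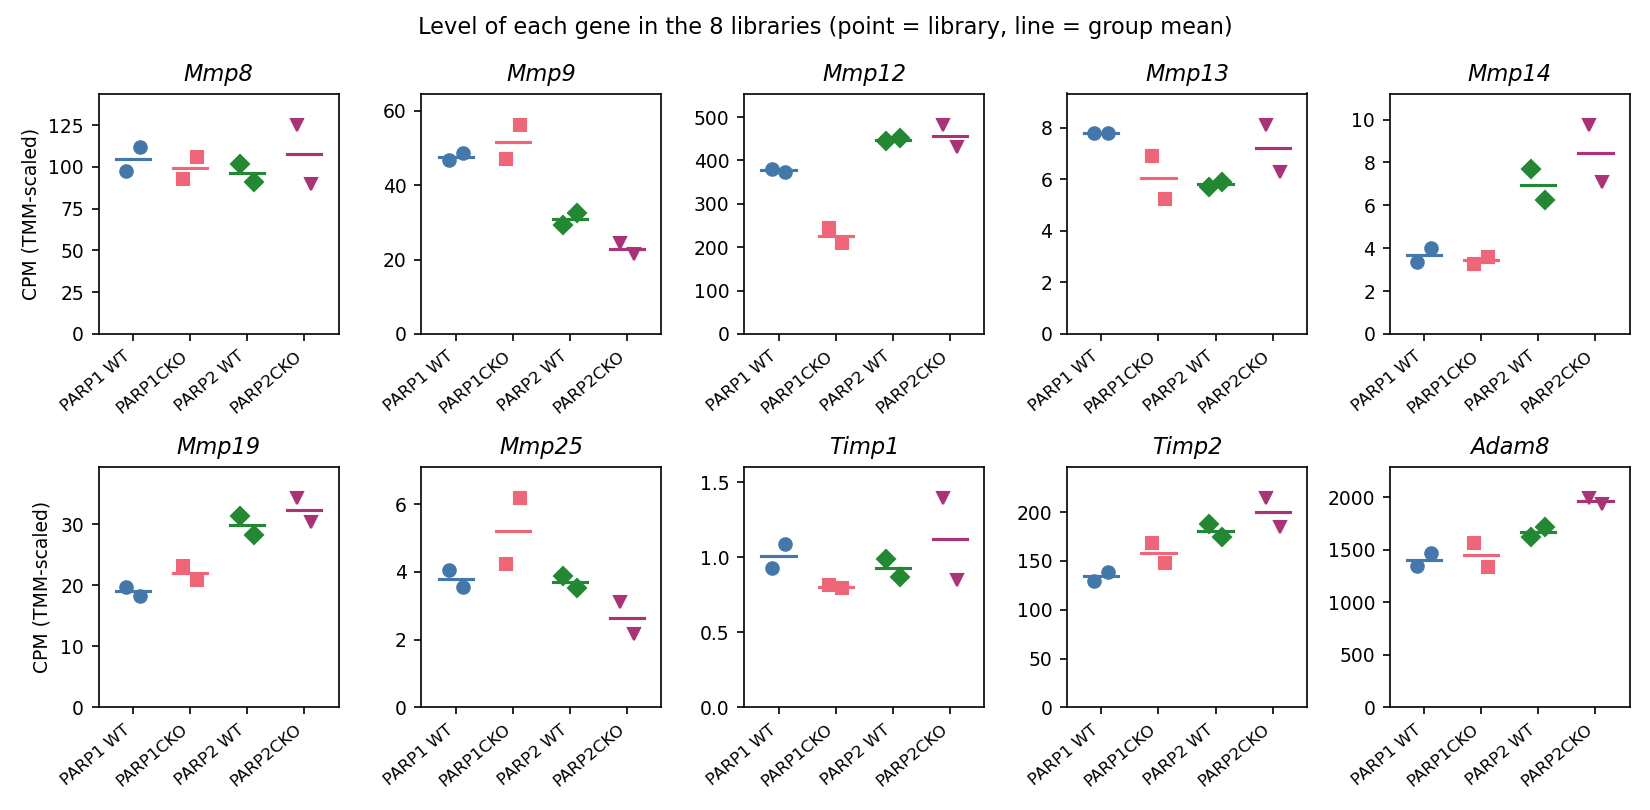
Level of each gene in CPM in every library, by group, with a line at the group mean and each vertical axis starting at 0. Mmp12 is lowest in the 2 PARP1CKO libraries, Mmp9 is lowest in the 2 PARP2CKO libraries, and Mmp14, Mmp19 and Timp2 lie higher in the PARP2 WT than in the PARP1 WT libraries.

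The first comparison asked how deletion of PARP1 changed these genes. Mmp12, 1 of the 2 genes by which the set was chosen, had 380 and 373 CPM in the PARP1 WT libraries against 245 and 208 CPM in the PARP1CKO libraries. The means were 377 ± 5.33 CPM for PARP1 WT and 226 ± 25.6 CPM for PARP1CKO (SD, n = 2). The fitted change was 1.66-fold lower in PARP1CKO, a log2 fold change of -0.73. Both PARP1CKO libraries lay below the other 6 libraries, where Mmp12 had between 373 and 482 CPM. With each library left out in turn the log2 fold change of Mmp12 lay between -0.85 and -0.62. That range takes no account of the choice of Mmp12 by this change and gives the change no support.

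None of the other 9 genes passed an adjusted p-value of 0.05 in the PARP1CKO comparison (quasi-likelihood test of edgeR, adjusted by Benjamini-Hochberg over all 13197 genes, as for each adjusted p-value here). In all, 14 genes did, or 0.106% of those tested. The likelihood-ratio test called 0 of the 9 as well, and DESeq2 0 of the 8 to which it gave an adjusted p-value (not Timp1). With unadjusted p-values below 0.05 there were 3 of the 9, Mmp13, Mmp19 and Timp2, against 11.3% of all genes. In 5 of the 9 the PARP1CKO libraries did not overlap the PARP1 WT libraries, against 41.2% of all genes. Mmp13 and Timp1 were on the lower side and Mmp19, Mmp25 and Timp2 on the higher. The median log2 fold change over the 9 genes was 0.042, against 0.006 over all genes tested, and lay between -0.03 and 0.11 with 1 library left out.

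Among the collagenases, Mmp13 had 7.78 and 7.80 CPM in the PARP1 WT libraries against 6.92 and 5.22 CPM in the PARP1CKO libraries. Its PARP1CKO libraries lay below both controls, and the log2 fold change was -0.36 (SE 0.155, adjusted p = 0.440). It was -0.17 without PARP1CKO replicate 2 and -0.58 without PARP1CKO replicate 1. Mmp8 had 97.8 and 112 CPM in the PARP1 WT libraries against 92.9 and 106 CPM in the PARP1CKO libraries, so the groups overlapped. The interval of its log2 fold change ran from -0.40 to 0.24 (95%). For Mmp9, the gelatinase, the libraries gave 46.7 and 48.5 CPM in the PARP1 WT libraries against 46.9 and 56.2 CPM in the PARP1CKO libraries. The log2 fold change of Mmp9 was 0.11 (95% interval -0.10 to 0.32, adjusted p = 0.669).

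Of the membrane-anchored enzymes, Mmp25 had 4.06 and 3.55 CPM in the PARP1 WT libraries against 4.22 and 6.17 CPM in the PARP1CKO libraries. Most of the difference came from PARP1CKO replicate 2, and the log2 fold change was 0.45 with all libraries (SE 0.213, adjusted p = 0.458), with a range of 0.16 to 0.70 over the fits that left out 1 library. Mmp14 had 3.33 and 4.03 CPM in the PARP1 WT libraries against 3.27 and 3.61 CPM in the PARP1CKO libraries, which overlapped (log2 fold change -0.11, 95% interval -0.55 to 0.34). Mmp19, a secreted enzyme that cleaves basement membrane proteins, had 19.8 and 18.3 CPM in the PARP1 WT libraries against 23.2 and 20.9 CPM in the PARP1CKO libraries, for a log2 fold change of 0.21 (adjusted p = 0.420).

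Of the inhibitors, Timp2 had 130 and 139 CPM in the PARP1 WT libraries against 168 and 147 CPM in the PARP1CKO libraries. Both PARP1CKO libraries lay above both controls, for a log2 fold change of 0.23 (SE 0.0837, unadjusted p = 0.0219, adjusted p = 0.365). Timp1 rested on 36 to 54 counts in these 4 libraries, and its log2 fold change of -0.33 had a 95% interval from -0.96 to 0.29. Adam8 had 1340 and 1470 CPM in the PARP1 WT libraries against 1564 and 1330 CPM in the PARP1CKO libraries. Its log2 fold change of 0.04 had the narrow interval of -0.14 to 0.22.

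The second comparison asked the same of PARP2. Mmp9, the other gene by which the set was chosen, had 29.2 and 32.5 CPM in the PARP2 WT libraries against 24.4 and 21.5 CPM in the PARP2CKO libraries. The means were 30.9 ± 2.36 CPM for PARP2 WT and 22.9 ± 2.07 CPM for PARP2CKO (SD, n = 2). The fitted change was 1.34-fold lower in PARP2CKO, a log2 fold change of -0.43. The 2 PARP2CKO libraries were the lowest of all 8. With each library left out the log2 fold change of Mmp9 lay between -0.52 and -0.34. As for Mmp12, the range takes no account of the choice of the gene and is no support.

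None of the other 9 genes passed an adjusted p-value of 0.05 in the PARP2CKO comparison by edgeR's quasi-likelihood test, where 7 genes in all, or 0.0530%, did. DESeq2 and the likelihood-ratio test called 0 of the 9 too. With unadjusted p-values below 0.05 there was 1 of the 9, Adam8, against 4.83% of all genes. In 3 of the 9 the groups did not overlap, against 37.2% of all genes. Adam8 and Mmp13 were on the higher side, and Mmp25 on the lower. The log2 fold change was above 0 in 8 of the 9 genes, with a median of 0.158 against -0.001 over all genes tested. That tally rested on PARP2CKO replicate 1, without which 5 of the 9 were above 0, with a median of 0.02.

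Adam8, which on myeloid cells sheds surface proteins, had 1617 and 1714 CPM in the PARP2 WT libraries against 1987 and 1938 CPM in the PARP2CKO libraries. Both PARP2CKO libraries lay above all other libraries, for a log2 fold change of 0.24 (SE 0.0788, unadjusted p = 0.0151, adjusted p = 0.888). Mmp13 had 5.71 and 5.90 CPM in the PARP2 WT libraries against 8.11 and 6.29 CPM in the PARP2CKO libraries (log2 fold change 0.32, SE 0.153, adjusted p = 0.954). Its replicates in PARP2CKO differed more from each other than the lower of them differed from the controls, and without PARP2CKO replicate 1 the log2 fold change was 0.12. Mmp25 had 3.87 and 3.52 CPM in the PARP2 WT libraries against 3.12 and 2.17 CPM in the PARP2CKO libraries, for a log2 fold change of -0.47 (SE 0.219, adjusted p = 0.954), which was -0.25 without PARP2CKO replicate 2 and -0.77 without PARP2CKO replicate 1.

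Mmp12 had 444 and 452 CPM in the PARP2 WT libraries against 482 and 431 CPM in the PARP2CKO libraries. The PARP2CKO libraries lay on either side of the controls, and the log2 fold change of 0.03 had a 95% interval from -0.15 to 0.20. Mmp8 had 102 and 91.2 CPM in the PARP2 WT libraries against 125 and 89.8 CPM in the PARP2CKO libraries, so that its higher mean in PARP2CKO came from replicate 1. Mmp14 (log2 fold change 0.28), Mmp19 (0.12), Timp1 (0.29) and Timp2 (0.14) also had overlapping groups, with adjusted p-values of 0.954, 0.954, 0.962 and 0.954 in the same order. Without PARP2CKO replicate 1 the log2 fold changes were 0.02 for Mmp14, 0.03 for Mmp19, -0.13 for Timp1 and 0.03 for Timp2.

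**Figure D3:**
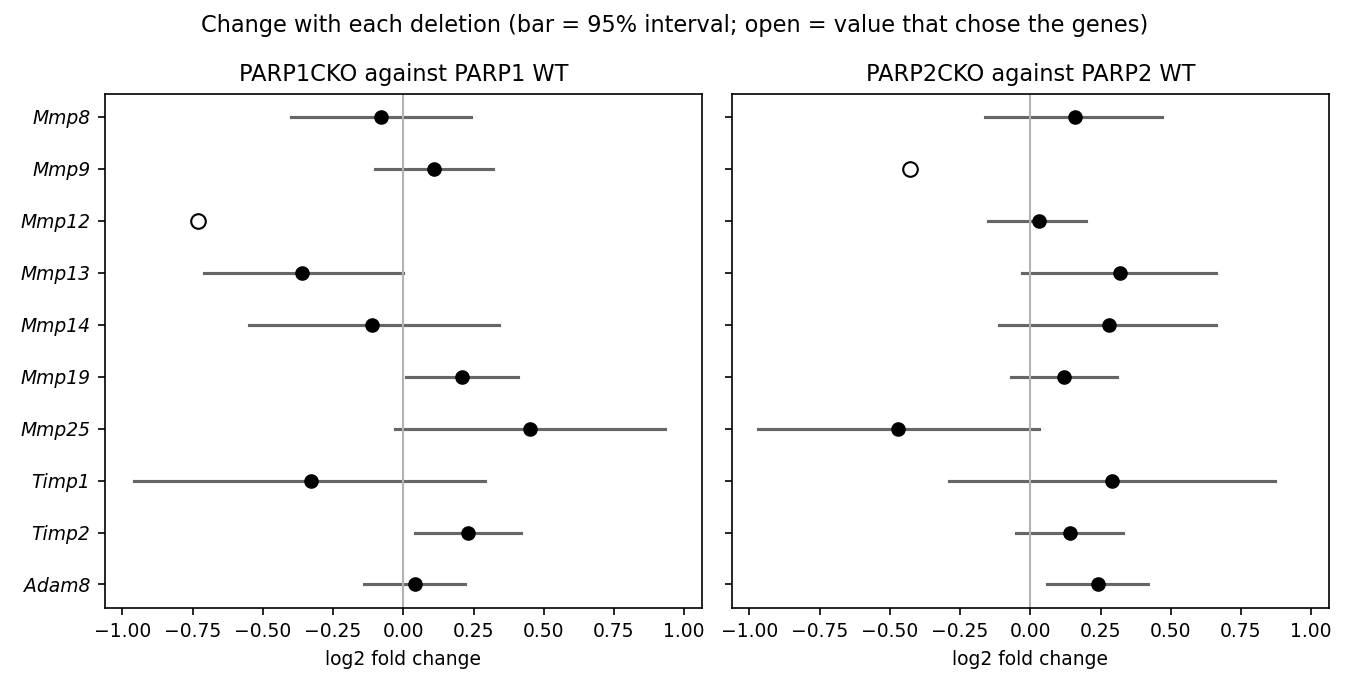
Log2 fold change of each gene in PARP1CKO against PARP1 WT (left) and in PARP2CKO against PARP2 WT (right), with 95% intervals from edgeR's quasi-likelihood fit on all 8 libraries. The open circles are the values that chose the set, Mmp12 at -0.73 and Mmp9 at -0.43, which are drawn without an interval and have no test. None of the genes of the set that were tested passed the adjusted threshold in either comparison.

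Markers of other cells were set beside these values. Mmp8, Mmp9 and Mmp25 are products of neutrophils, and the 11 neutrophil markers measured summed to 3041 to 3277 CPM in the PARP1 WT libraries, 2704 to 3420 in PARP1CKO, 3254 to 3470 in the PARP2 WT libraries and 2814 to 3175 in PARP2CKO. In the PARP2CKO comparison 10 of these 11 markers had a log2 fold change below 0, with a median of -0.20. The difference lay in the same direction as those of Mmp9 and Mmp25 and not that of Mmp8 (0.16). In the PARP1CKO comparison 5 of the 11 were below 0, with a median of 0.035. The 10 macrophage markers, by contrast, had medians of 0.062 in PARP1CKO and 0.052 in PARP2CKO, and 3 and 4 of the 10 lay below 0. The part of the cell mixture in the levels of Mmp9 and Mmp25 was not tested.

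The difference between the PARP2CKO and the PARP1CKO effects was then tested directly for the 8 genes that did not choose the set. None of them passed an adjusted p-value of 0.05 with edgeR's quasi-likelihood test, DESeq2 or the likelihood-ratio test, and 2 genes in all passed with the first, or 0.0152%. With unadjusted p-values below 0.05 there were 2 of the 8, against 7.69% of all genes. Mmp13 was lower in PARP1CKO and higher in PARP2CKO, a difference of 0.67 on the log2 scale (SE 0.218, adjusted p = 0.582), and Mmp25 had the opposite directions, a difference of -0.92 (SE 0.306, adjusted p = 0.582). For Mmp12 and Mmp9 the differences of 0.76 and -0.54 follow from the choice of the genes and have no test.

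The differences in the set that passed the test lay between the 2 floxed lines, which were not the subject of the study. In PARP2 WT against PARP1 WT IMCs, 3 of the 8 genes tested passed an adjusted p-value of 0.05 with edgeR's quasi-likelihood test, all higher in PARP2 WT, whereas 417 genes did in all, or 3.16%. With unadjusted p-values below 0.05 there were 5 of the 8, against 18.9% of all genes. The groups did not overlap in 5 of the 8, against 51.9%. These WT libraries also serve as controls in the comparisons above.

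Mmp14 had 3.33 and 4.03 CPM in the PARP1 WT libraries against 7.69 and 6.25 CPM in the PARP2 WT libraries. In the fit, which gives each fold here, it was 1.89-fold higher in PARP2 WT, for a log2 fold change of 0.91 (SE 0.183, adjusted p = 0.0338). With the replicate number as a block, the log2 fold change of Mmp14 was 0.90 and its call was lost (adjusted p = 0.0532 from edgeR). Mmp19 had 19.8 and 18.3 CPM in the PARP1 WT libraries against 31.4 and 28.3 CPM in the PARP2 WT libraries, 1.57-fold higher (log2 fold change 0.65, SE 0.0868, adjusted p = 0.00703). Timp2 had 130 and 139 CPM in the PARP1 WT libraries against 188 and 174 CPM in the PARP2 WT libraries, 1.35-fold higher (log2 fold change 0.43, SE 0.0835, adjusted p = 0.0308). In all 3 genes the lower PARP2 WT library lay above the higher PARP1 WT library.

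Adam8 (log2 fold change 0.25, adjusted p = 0.144) and Mmp13 (-0.42, adjusted p = 0.186) did not pass the threshold with the quasi-likelihood test. Adam8 passed with DESeq2 (adjusted p = 0.0188) and in edgeR with no filter on low counts (0.0371), each of which called 4 of the 8 genes, where 551 and 872 genes were called in all. Mmp13 passed in no alternative. Mmp8, Mmp25 and Timp1 had log2 fold changes of -0.12, -0.04 and -0.13. Mmp9 was lower in PARP2 WT, for a log2 fold change of -0.63, and Mmp12 higher, with 0.25, again with no test. The difference in Mmp9 between the WT groups of the lines was larger than that between PARP2CKO and PARP2 WT, a comparison of sizes that was not tested.

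Only Mmp19 passed when any 1 of the 4 WT libraries was left out, with an adjusted p-value between 0.00501 and 0.0461 over all 8 fits that left out a library. Mmp14 (adjusted p from 0.0251 to 0.216) and Timp2 (0.0164 to 0.208) each lost the call in the 4 fits without PARP1 WT replicate 1, PARP1 WT replicate 2, PARP2 WT replicate 1 or PARP2 WT replicate 2 and kept it in the other 4, with log2 fold changes from 0.76 to 1.06 for Mmp14 and from 0.38 to 0.48 for Timp2.

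The lines were compared again in the CKO libraries, a comparison added after the data were seen. PARP2CKO against PARP1CKO gave 5 calls among the 8 genes, against 10.3% of all genes. Mmp14 was 2.46-fold higher (log2 fold change 1.30, adjusted p = 0.00449), Mmp19 1.47-fold (0.55, adjusted p = 0.00652), Adam8 1.36-fold (0.44, adjusted p = 0.0119) and Timp2 1.27-fold (0.34, adjusted p = 0.0345). Mmp25 was lower (log2 fold change -0.96, adjusted p = 0.0265). Cell markers were called here too, lower for 4 of 4 B cell, 4 of 6 mast cell and basophil and 3 of 11 neutrophil markers. Called higher were 5 of 6 granulocyte progenitor, 2 of 7 osteoclast, 2 of 10 macrophage and 1 of 6 stromal and osteoblast markers. Of 6 monocyte markers 2 were called higher and 1 lower. The neutrophil markers had a median log2 fold change of -0.06, with 4 above 0 and 7 below. The part of the cell mixture in the 5 calls of the set was not tested. The sample labels give no colony or day of culture, so in either comparison the line cannot be told apart from a batch that went with it. In the CKO libraries the line also cannot be told apart from the deletions.

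**Figure D4:**
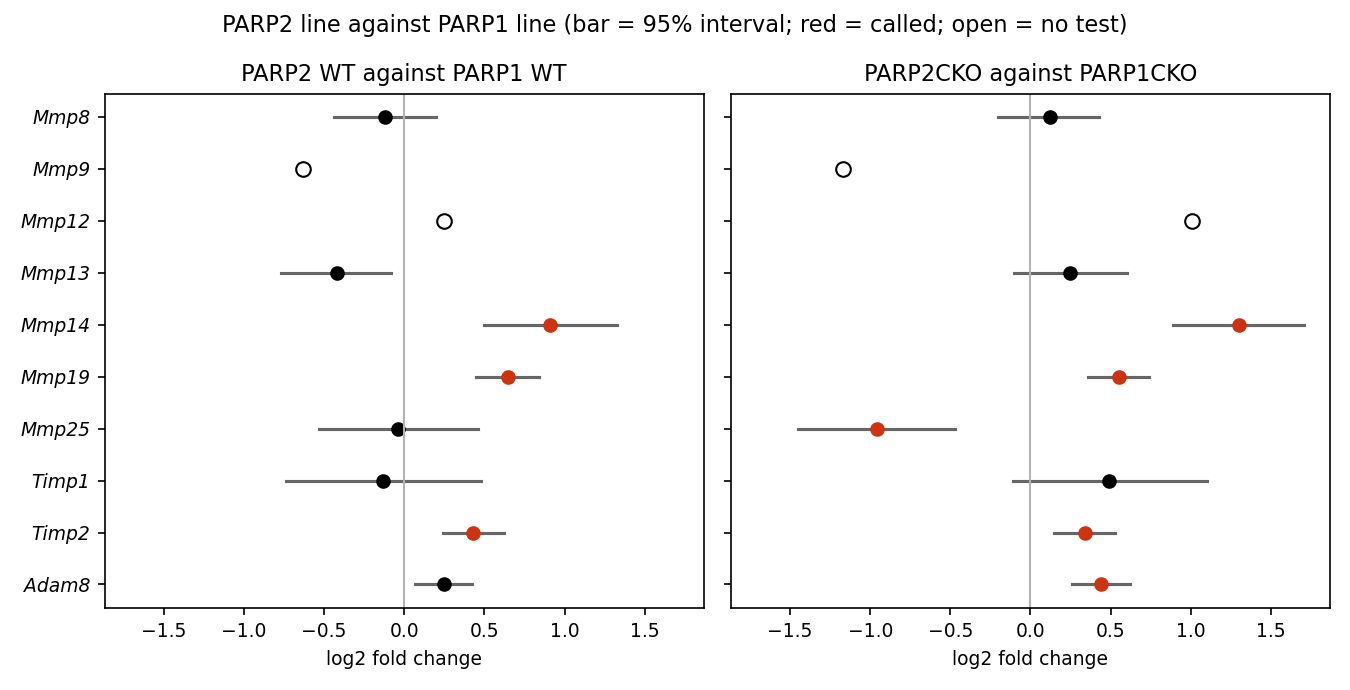
Log2 fold change of each gene in the PARP2 line against the PARP1 line, in the WT libraries (left) and in the CKO libraries (right), with 95% intervals. Genes past an adjusted p-value of 0.05 are in red, and Mmp14, Mmp19 and Timp2 are among them on both sides.

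Cell markers also differed between the lines. The 4 B cell markers were all called lower in PARP2 WT than in PARP1 WT, their median log2 fold change being -1.80, and summed to 26.5 to 31.0 CPM in PARP1 WT and 8.74 to 10.4 CPM in PARP2 WT. Of the 6 granulocyte progenitor markers, 2 were called higher in PARP2 WT, and all 6 were above 0 (median 0.366). Of the 10 macrophage markers 9 were above 0 and 1, Mertk, was called higher, with a median of 0.204. Of the 11 neutrophil markers 6 were above 0 and 5 below, with a median of 0.212, and 1, Retnlg (-0.79), was called lower. Cxcr2 (-0.41) and Csf3r (-0.27) were also below 0, as was Mmp9 (-0.63), while Camp (0.42) and Padi4 (0.42) were above. The stromal and osteoblast markers, genes of cells that also make MMP14 and TIMP2, summed to at most 4.75 CPM in any library. The part of these cells in the line difference of Mmp14, Mmp19 and Timp2 was not tested.

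Osteoclast markers, of interest because osteoclasts also make MMP9 and MMP14, summed to between 219 and 282 CPM in the 8 libraries, most of it from Itgb3 (means of 151 CPM in PARP1 WT and 143 CPM in PARP2 WT) and Nfatc1 (71.3 and 68.2 CPM). The osteoclast protease gene Ctsk was higher in PARP2 WT (log2 fold change 1.31, adjusted p = 0.0267 with edgeR), and Acp5 had means of 3.19 and 5.68 CPM (0.83, adjusted p = 0.0557). Over 7 osteoclast markers the median log2 fold change was 0.021 in PARP1CKO, 0.244 in PARP2CKO and 0.571 in PARP2 WT against PARP1 WT. Between the WT groups 4 of the 7 were above 0 and 3 below (Dcstamp -0.46, Itgb3 -0.08 and Nfatc1 -0.06). Only 1 of the 7, Ctsk, was called higher there. The part of osteoclasts in the line difference of Mmp14 was not tested. The same 3 medians were -0.194, -0.153 and 0.113 for 6 monocyte markers, -0.097, -0.357 and -0.725 for 6 markers of mast cells and basophils, -0.444, -0.273 and 0.208 for 6 stromal and osteoblast markers, and -0.038, 0.112 and -0.033 for 4 endothelial markers. T and NK cell markers summed to at most 2.94 CPM. Xist had 0 to 3 counts per library and the Y-linked genes were counted in all 8, a check made because Timp1 is X-linked. Among the Y-linked genes Ddx3y lay between 3044 and 5235 counts and Eif2s3y between 1478 and 4626.

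The wider pathway was examined through 42 further genes on 4 lists, of which 25 passed the filter and 6 had 0 counts in all libraries. Plau, the urokinase that generates plasmin, was the highest per length with 309 CPM per kb, followed by Bsg (basigin, an inducer of metalloproteinases) with 112 and the hyaluronan receptor Cd44 with 65.8. Among the 16 other matrix metalloproteinases 6 passed the filter, and the highest of these, Mmp27, reached 5.72 CPM per kb. Mmp2, the gelatinase activated by MMP14, had 5 to 21 counts per library.

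In neither deletion did any of these 25 genes pass an adjusted p-value of 0.05 with edgeR's quasi-likelihood or likelihood-ratio test, nor with DESeq2, which gave 20 of the 25 an adjusted p-value in PARP1CKO and all 25 in PARP2CKO. With an unadjusted p-value under 0.05 there were 4 in PARP1CKO, against 11.3% of all genes, and 0 in PARP2CKO, against 4.83%. The 4 in PARP1CKO were Furin, which activates MMP14 (log2 fold change 0.15, adjusted p = 0.380), Adam19 (0.64, adjusted p = 0.382), Cd44 (-0.16, adjusted p = 0.392) and Mmp10 (-1.16, adjusted p = 0.425). Mmp10 rested on 5 to 18 counts per library. In PARP2CKO the smallest unadjusted p-values were those of Mmp27 (log2 fold change 0.24), Lcn2 (-0.24), Ctsg (-0.16) and Furin (0.09). Each had an adjusted p-value of 0.954 from edgeR's quasi-likelihood test.

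Between the lines the quasi-likelihood test called 3 of the 25 genes, against 3.16% of all genes, all higher in PARP2 WT than in PARP1 WT. DESeq2 called 3, of 551 genes called in all, and the likelihood-ratio test 5, of 910. The 3 of the quasi-likelihood test were the urokinase receptor Plaur (log2 fold change 0.35, adjusted p = 0.0309) and the neutrophil granule proteases Elane (0.42, adjusted p = 0.0269) and Prtn3 (0.54, adjusted p = 0.0197). Elane and Prtn3 are also on the granulocyte progenitor list. In PARP2CKO against PARP1CKO these 3 were called again, along with Mmp2 (log2 fold change 1.55, adjusted p = 0.0321), where 10.3% of all genes were called. Mmp2 rested on 5 to 21 counts per library.

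The genes whose level followed that of Mmp12 and Mmp9 most closely over the 8 libraries were sought by Pearson correlation of log2 CPM, as a description of libraries that share groups and lines. For Mmp12 they were Ftsj3 (r = 0.987), 1810022K09Rik (0.982), Wfikkn1 (0.981), Ttc27 (0.979) and Gpn1 (0.974). Their range was smaller, since Ftsj3 lay between 83.8 and 101 CPM while Mmp12 lay between 208 and 482 CPM. For Mmp9 they were Cdkn3 (r = 0.985), Hbb-b1 (0.984), Hbb-bs (0.984), Ifitm6 (0.984) and the neutrophil chemokine receptor Cxcr2 (0.983). The globin symbols Hbb-b1 and Hbb-bs have identical values in the table and count as 1 measurement.

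Within the set Mmp9 had its highest correlation with Mmp25 (r = 0.828, n = 8 libraries) and its lowest with Adam8 (-0.925), Mmp14 (-0.913) and Mmp19 (-0.905), while its correlation with Mmp8 was 0.020. Mmp8 and Mmp9 are both neutrophil granule genes. The level of Mmp8 per length was 3.05 and 3.36 times that of Mmp9 in the PARP1 WT libraries and 2.89 and 2.74 times in the PARP1CKO libraries, against 5.08 and 4.09 times in the PARP2 WT libraries and 7.49 and 6.10 times in the PARP2CKO libraries. The difference between PARP2 WT and PARP2CKO includes the level of Mmp9 that chose the set (log2 fold change -0.43), so it is not independent of that choice. It also includes the level of Mmp8 (0.16, not called).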

How the data were processed

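Total RNA of IMCs was sequenced in 8 libraries. The authors deposited raw counts per gene, and the submitters' processing notes name FastQC 0.11.2, TopHat2 2.0.12, Picard 1.127, featureCounts and the genome mm10. The annotation, the strand setting and the treatment of marked duplicates are not given in the sources used here. The depth was between 37852450 and 61845125 counts per library.

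Counts were analyzed in R 4.3.3 with edgeR 4.0.16 and DESeq2 1.42.0. Genes were filtered with filterByExpr, scaled with TMM, and tested by quasi-likelihood in 1 model of the 8 libraries and 4 group means, with Benjamini-Hochberg adjustment over 13197 genes at 0.05. Scripts were tested on simulated data. An exact permutation test of 2 against 2 libraries cannot give a two-sided p below 0.333, and the p-values are those of the model. Replicates differed beyond sampling noise (chi-square per gene 8.69 to 13.1).

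The 10 genes, the pathway and marker lists and the tests were chosen with earlier results of these data known. The genes named are all 10 members, Parp1 and Parp2, and of the pathway lists those called in a deletion, the 4 with the smallest unadjusted p in each deletion and the 3 with the highest level per length; also the 5 most correlated genes of Mmp12 and Mmp9. Pathway and marker genes called between the lines, genes that mark a cell type, the other genes of the chromosome 9 cluster and the inhibitors Timp3 and Reck were named beside them after their values were seen. Lengths and positions came from GENCODE M21, and promoters from RefSeq on GRCm38.p6, where Mmp9 and Mmp19 were not matched. Alternatives were other scalings, tests, filters, a replicate block, a fit on 4 libraries, and leaving out each library.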

Additional observations from a re-analysis of the deposited data

Results flagged for a closer look

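Mmp13 and Mmp25 drew attention because the CKO libraries of the 2 lines lay past their own WT libraries in opposite directions. Groups that do not overlap were common, with 41.2% of all genes tested in PARP1CKO and 37.2% in PARP2CKO. The share of all genes with such opposite directions was not counted, so the pattern is not shown to be particular to Mmp13 and Mmp25. For Mmp13 the PARP2CKO effect exceeded the PARP1CKO effect by 0.67 on the log2 scale, with an adjusted p-value of 0.582 from edgeR's test of the difference. It lay between 0.47 and 0.90 with each library left out. For Mmp25 the difference was -0.92, with the same adjusted p-value from edgeR, and lay between -1.22 and -0.63. Neither passed the threshold in any fit that left out 1 library, where the smallest adjusted p-values were 0.189 and 0.191 from edgeR.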

How the results depend on the processing

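In each deletion 0 of the 9 genes tested was called under any alternative listed. The number of all genes called moved most. With DESeq2, the likelihood-ratio test and no filter it was 86, 146 and 101 for PARP1CKO, 27, 39 and 26 for PARP2CKO, and 45, 72 and 61 for the difference of effects, and between the lines it was 910 with the likelihood-ratio test and 872 with no filter. With 1 library left out it ranged from 1 to 34, 4 to 19 and 1 to 16, and from 85 to 566 between the lines, where 1 to 3 of the 8 genes were called. Between the lines, the CKO libraries in place of the WT libraries, added after seeing the data, called 1363 genes and 5 of the 8, and turned Mmp8 to 0.12, Mmp13 to 0.25 and Timp1 to 0.49. Scaling by library size alone turned Mmp12 in PARP2CKO to -0.0003. The causes were not tested.

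With 1 library left out the sign changed for 10 values. In PARP1CKO these were Mmp8 (-0.17 to 0.02), Mmp9 (-0.02 to 0.24), Mmp14 (-0.23 to 0.04) and Adam8 (-0.08 to 0.15), and in PARP2CKO Mmp8 (-0.10 to 0.38), Mmp12 (-0.06 to 0.11) and Timp1 (-0.13 to 0.58). Between the lines it was Mmp25 (-0.13 to 0.06), and for the difference of effects Mmp8 (-0.02 to 0.46) and Timp2 (-0.20 to 0.01). Where a group kept 1 library, that library was assumed to vary like the other groups.

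The replicate number is only a name in the labels, and deviations of libraries with the same number had correlations between -0.13 and 0.15. With the number as a replicate block, 14, 6, 315 and 3 genes were called for PARP1CKO, PARP2CKO, the lines and the difference of effects, and Mmp14 lost its call between the lines (0.90, adjusted p = 0.0532 from edgeR). Over the basic transcripts, also added later, the mean level was 94.6 CPM per kb for Mmp12 and 520 for Adam8, and Mmp12 then exceeded Timp2 in 8 of 8 libraries. Levels per coding length were not run. Depth limits Timp1, Mmp25 and Mmp14 most, with 36 to 83, 105 to 279 and 129 to 582 counts per library.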
